A study of Mus musculus with 2 samples.

Results

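The 10 genes described here, Hp, Orm1, Orm2, Lcn2, Fga, Fgb, Fgg, Hpx, Itih4 and Apcs, encode acute phase plasma proteins outside the serum amyloid A (Saa) family. They were taken by symbol from a deposited table of 38016 loci, in which 33224 gene symbols had a usable value, and each of the 10 matched a single row. The table compares regenerating livers of wild-type (WT) and PPARβ-null (KO) male C57BL/6 mice, with an age of 4 months in the sample labels. The livers were taken 48 hr after partial hepatectomy (PH), the surgical removal of most of the liver, which both genotypes had undergone, and no liver without PH was sequenced. Each genotype gave 1 library from total liver RNA, so no value carries an error between mice and no test between genotypes was possible. How many mice stood behind a library, and which part of Ppard, the gene of PPARβ, the KO allele lacks, are not given in the sources used here. The Ppard locus had 2.67 FPKM in WT and 2.42 FPKM in KO, so its level did not tell the libraries apart. FPKM, the number of fragments per transcript length and library depth, was compared between genes as well as between libraries. For a transcript of 1 kb, an FPKM of 1 stood for about 53.2 WT fragments or 55.6 KO fragments, estimated from the lowest values of single-exon genes.

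The acute phase response is the change in plasma protein production by the liver after injury or infection. Interleukin-6 and related cytokines signal through the receptor subunit gp130 (Il6st) and the transcription factor STAT3 in hepatocytes, interleukin-1 adds C/EBP and NF-κB activity, and the genes of the positive acute phase proteins are then transcribed at higher rates. The 10 proteins have different tasks in plasma, among them the binding of haemoglobin and haem, the capture of bacterial iron carriers, clotting and the binding of drugs and bacterial surfaces. Surgery itself is a stimulus of this response, and both libraries came from operated mice.

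All 10 genes had a higher FPKM in KO than in WT liver. The KO/WT ratio ranged from 1.29 for Orm2 to 3.59 for Lcn2, and their median log2 KO/WT was 0.91, which is a ratio of 1.87. More than 2-fold higher in KO were 3 of the 10, namely Lcn2, Itih4 and Hp, and 9 of the 10 were more than 1.5-fold higher. Among 11723 expressed genes, defined by a mean FPKM over both libraries of 1 or more, 1.77% were more than 2-fold and 4.2% more than 1.5-fold higher in KO, 24.4% were higher by any amount, and the median log2 KO/WT was -0.24. Scaling the libraries to equal upper quartiles would add 0.20 to every log2 KO/WT, and centring on the median of these genes would add 0.24, so that a list or gene between -0.24 and 0 as deposited turns to the KO side under such a scaling. In liver tissue, fewer cells of a type and less RNA per cell cannot be told apart.

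The same genes are among the most abundant of the liver, where the ratios were centred near 0. Of the 188 genes at or above the mean FPKM of Apcs, the least abundant of the 10, 46.8% were higher in KO, 21.3% by more than 1.5-fold and 9.57% by more than 2-fold. The median log2 KO/WT of these 188 genes, a comparison chosen after the values were seen, was -0.0145. The 188 genes include the 10 themselves, so these shares are in part their own. Against this background, 9 of the 10 genes passed the 1.5-fold line as deposited, and Orm2 did not. With the ratios centred on the median of expressed genes, all 10 passed it.

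**Figure D1:**
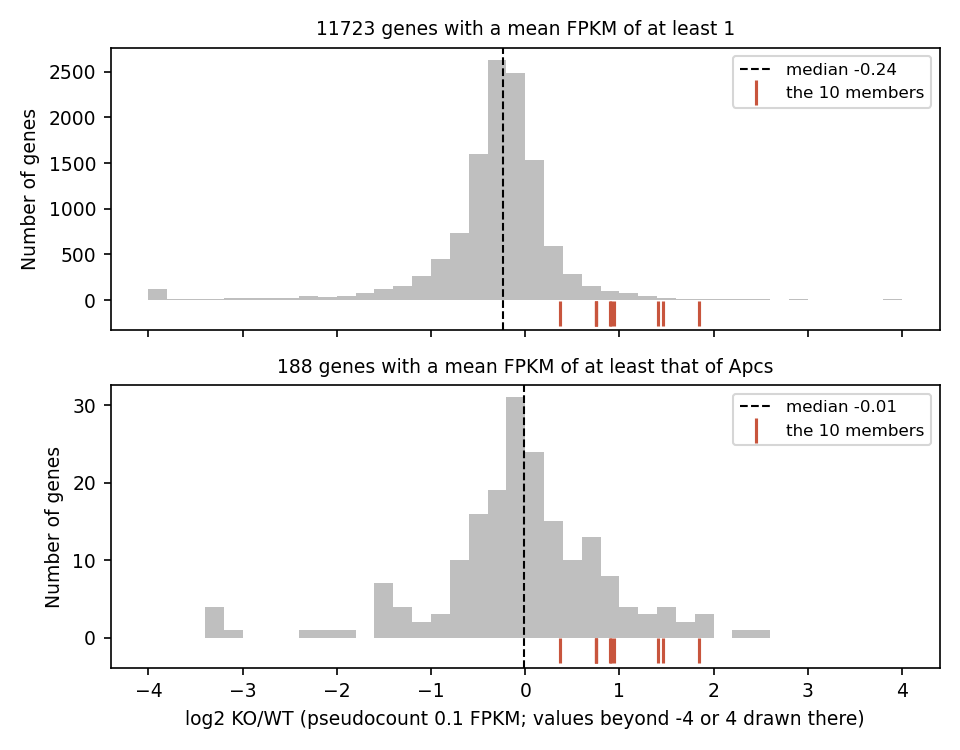
Histograms of log2 KO/WT for 11723 expressed genes (upper panel) and for the 188 genes at or above the mean FPKM of Apcs (lower panel), with the number of genes on the y axis, the median as a dashed line and the 10 acute phase genes as red ticks. The medians lie at -0.24 and -0.01, and all 10 ticks lie above 0, from 0.36 for Orm2 to 1.85 for Lcn2.

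Summed over the 10 genes, FPKM was 21292 in WT and 42510 in KO, a KO/WT ratio of 2.00, and 1.85 without Hp. Of all FPKM, the sum made up 3.91% in WT and 7.7% in KO. Shares and ranks leave out 21 loci with a failed estimate, among them those of Alb, Trf and C3, so they are not of the whole liver RNA. Ranked by FPKM among gene symbols with a usable value, 7 of the 10 were in the first 100 in WT and 8 in KO. All 10 stood at a better rank in KO than in WT. In the order of their levels the libraries differed by 3 exchanges of neighbours, Hpx with Hp, Fgb with Fga and Orm1 with Fgg. The highest and lowest of the 10 lay 20.9-fold apart in WT and 22.6-fold apart in KO. About 13066 fragments of Apcs in the WT library were the fewest behind any of these values. The 95% intervals given with the ratios rest on such estimates and cover counting error only.

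**Figure D2:**
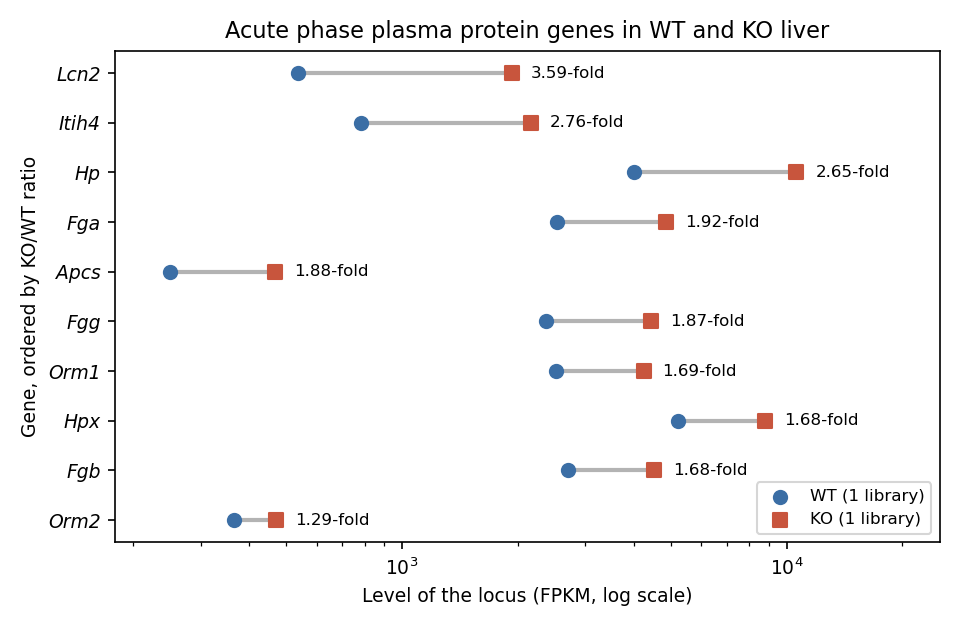
FPKM of each of the 10 acute phase genes (log scale on the x axis) in the WT library (blue circles) and the KO library (red squares), ordered by KO/WT ratio, which is printed beside each pair. Every KO value lies to the right of its WT value, and the distance is longest for Lcn2 (3.59-fold) and shortest for Orm2 (1.29-fold).

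In descending order of the KO/WT ratio the genes were Lcn2, Itih4, Hp, Fga, Apcs, Fgg, Orm1, Hpx, Fgb and Orm2. The steps from Fga to Apcs, from Apcs to Fgg, from Orm1 to Hpx and from Hpx to Fgb were within the counting intervals, so these neighbours were not told apart even by depth. The largest step, 1.38-fold, lay between Hp and Fga and separated the 3 genes above the 2-fold line from the other 7. Just under that line were Fga at 1.92-fold and Apcs at 1.88-fold, and the lowest ratio above it was that of Hp at 2.65-fold.

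Hp and Hpx encode the plasma proteins that clear the products of red cell lysis. Haptoglobin, the product of Hp, binds free haemoglobin, and hemopexin, the product of Hpx, binds free haem. The Hp locus (chromosome 8, 112099030 to 112103072 on NCBI37, minus strand, 5 exons) had 4002 FPKM in WT and 10602 FPKM in KO, a ratio of 2.65 (95% counting interval 2.64 to 2.66). Among gene symbols with a usable value, it was the 19th by FPKM in WT and the 4th in KO. Its transcripts held 1.92% of the usable FPKM in KO. The Hpx locus (chromosome 7, 112740127 to 112748630, minus strand, 10 exons) had 5229.5 FPKM in WT and 8795 FPKM in KO, a ratio of 1.68 (95% counting interval 1.68 to 1.69). Thus Hpx was the highest of the 10 genes in WT and Hp the highest in KO, and the level of Hpx relative to Hp was 1.31 in WT and 0.83 in KO.

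Genes that handle haem and haemoglobin after uptake were mostly lower in KO, as were 75.6% of all expressed genes. Of 12 expressed genes of this kind, 10 were lower in KO and 2 were higher, a share near that of all genes, and their median log2 KO/WT was -0.40. Hmox1, haem oxygenase, had 27.4 FPKM in WT and 25.8 FPKM in KO. Cd163, the macrophage receptor of the haptoglobin-haemoglobin complex, had 2.34 FPKM in WT and 1.25 FPKM in KO, and Lrp1, the receptor of the hemopexin-haem complex, had 126 and 190 FPKM. The ferritin genes were the most abundant of this list, with 4641 FPKM in WT and 1970 FPKM in KO for Ftl1, on a row shared with another gene, and with 1814 and 1384 FPKM for Fth1. More than 2-fold lower in KO were 2 of the 12, Ftl1 at 2.36-fold and Blvra, a biliverdin reductase, at 2.04-fold, where 8.69% of all expressed genes were more than 2-fold lower. Of 5 expressed red cell markers, the 4 haemoglobin genes were lower in KO, among them Hba-a1 with 139 and 113 FPKM and Hbb-b1 with 136 and 102 FPKM. The fifth, Alas2, the haem synthesis enzyme of red cell precursors, was higher, with 20.6 FPKM in WT and 37.5 FPKM in KO.

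Fga, Fgb and Fgg encode the α, β and γ chains of fibrinogen, which are secreted as 1 hexamer with each chain in equal number and are cut by thrombin to form fibrin. They lie side by side on chromosome 3, Fgg from 82811781 to 82818975 and Fga from 82829963 to 82838036 on the plus strand and Fgb from 82846169 to 82853725 on the minus strand. Fga had 2531 FPKM in WT and 4851 FPKM in KO, a ratio of 1.92 (95% counting interval 1.91 to 1.92). Fgb had 2698 and 4534 FPKM, a ratio of 1.68 (1.67 to 1.69), and Fgg had 2375 and 4444 FPKM, a ratio of 1.87 (1.86 to 1.88). The levels of the chains were close to equal in each library, with the highest 1.14-fold above the lowest in WT and 1.09-fold in KO. The order differed, since Fgb was the highest chain in WT and Fga in KO, while Fgg was the lowest in both.

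Other genes of clotting and fibrinolysis stayed nearer to equal levels. Of 15 expressed genes of this kind, 8 were higher and 7 lower in KO, and their median log2 KO/WT was 0.32. Among the lower ones, F7, F10, F12, Serpinf2 and Serpinc1 had a log2 KO/WT between -0.14 and -0.02 and turn above 0 with equal upper quartiles. The 3 most abundant were Plg, plasminogen, with 516 and 741 FPKM, Serpinc1, antithrombin, with 574 and 565 FPKM, and F2, prothrombin, with 460 and 579 FPKM. F7 and F10 shared a joint row and thus have the same value.

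Orm1 and Orm2 encode orosomucoid, the α1-acid glycoprotein, a lipocalin that carries basic drugs and lipophilic molecules in plasma. The Orm1 locus (chromosome 4, 63004922 to 63009197, plus strand, 6 exons) had 2519 FPKM in WT and 4249 FPKM in KO, a ratio of 1.69 (95% counting interval 1.67 to 1.70). The Orm2 locus (63023483 to 63026912 on the same strand) had 365 FPKM in WT and 470 FPKM in KO, a ratio of 1.29 (1.26 to 1.31), the lowest of the 10. Between them lies Orm3, the third mouse orosomucoid gene, with 20.0 FPKM in WT and 9.07 FPKM in KO, which is 2.21-fold lower in KO. The 3 neighbours thus had the KO/WT ratios 1.69, 0.453 and 1.29 in their order along the chromosome. Orm1 stood 6.89-fold above Orm2 in WT and 9.03-fold in KO, and Orm2 stood 18.3-fold above Orm3 in WT and 51.9-fold in KO.

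The orosomucoid genes are close copies, so their start of coding is printed here to show how far reads could tell them apart. The first 60 coding bases are given from the annotated transcripts on NCBI37, in lower case, with capitals at the 12 positions where the 3 genes do not all have the same base.
Orm1: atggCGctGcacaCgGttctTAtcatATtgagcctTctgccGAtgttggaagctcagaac
Orm2: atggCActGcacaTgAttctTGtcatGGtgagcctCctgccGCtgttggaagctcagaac
Orm3: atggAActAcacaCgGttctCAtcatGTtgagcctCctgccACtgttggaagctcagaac
Over the whole coding sequence, Orm1 and Orm2 were identical at 561 of 624 bases (89.9%), Orm1 and Orm3 at 86.1% and Orm2 and Orm3 at 88.0% of aligned positions. Of the 676 windows of 100 bases, the length of a read, in the Orm1 transcript, 47 (6.95%) were also found without mismatch in Orm2, and no window of Orm1 or Orm2 was found in Orm3. Reads of these stretches can belong to either gene, which makes the split between Orm1 and Orm2 less certain than the other values. The deposited loci of Orm1, Fga and Lcn2 begin upstream of the annotated gene, that of Lcn2 by 403 bases, while the loci of the other 7 genes have the annotated bounds. For the other 8 genes no window of 100 bases was shared with the coding transcripts of another gene.

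Lcn2 encodes lipocalin 2, which binds bacterial siderophores and so withholds iron from bacteria, and which hepatocytes and neutrophils both can produce. The Lcn2 locus (chromosome 2, 32240153 to 32243720, minus strand, 6 exons in the longest coding transcript) had 538 FPKM in WT and 1935 FPKM in KO. The ratio of 3.59 (95% counting interval 3.54 to 3.64) was the highest of the 10 genes, and 99.6% of expressed genes had a lower one. Among gene symbols with a usable value, Lcn2 stood at rank 127 by FPKM in WT and at rank 48 in KO. It stood 1.47-fold above Orm2 in WT but 4.11-fold above it in KO.

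Genes that mark neutrophils, which carry lipocalin 2 in their granules, had low levels in both libraries. Of 12 such genes, 9 had a mean FPKM below 1, and Camp and Mpo, which encode granule proteins, were listed at 0 in both. Ltf, lactoferrin of the same granules as lipocalin 2, had 0.00563 FPKM in WT and was listed at 0 in KO, and Ngp was listed at 0 in WT with 0.0147 FPKM in KO. The summed level of the 12 genes was 16.6 FPKM in WT and 8.78 FPKM in KO. The highest, S100a8, S100a9 and Retnlg, were lower in KO, with 6.68 and 3.33 FPKM for S100a8, 6.11 and 3.48 FPKM for S100a9 and 1.88 and 0.957 FPKM for Retnlg. These 3 were the only expressed markers of the list, and 75.6% of all expressed genes were lower in KO, so their direction sets them little apart. The part of neutrophils in the Lcn2 values was not tested.

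Itih4 belongs to the inter-alpha-trypsin inhibitor heavy chain family, whose other heavy chains are joined to bikunin, the product of Ambp, and bind hyaluronan. The Itih4 locus (chromosome 14, 31699662 to 31715167, plus strand, 23 exons) had 784 FPKM in WT and 2162 FPKM in KO, a ratio of 2.76 (95% counting interval 2.74 to 2.78). Itih3 and Itih1 lie next to it, and their values were 540 and 816 FPKM for Itih3, a ratio of 1.51, and 139 and 199 FPKM for Itih1, a ratio of 1.43. Elsewhere in the genome, Itih2 had 331 FPKM in WT and 349 FPKM in KO, and Ambp had 1365 and 1521 FPKM. Itih5 was the single member of the family more than 2-fold lower in KO, with 4.54 and 1.13 FPKM.

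Apcs encodes serum amyloid P, a pentraxin that binds bacterial surfaces, chromatin and amyloid and is a main acute phase protein of the mouse. The Apcs locus (chromosome 1, 174824093 to 174825185, minus strand, 2 exons) had 250 FPKM in WT and 469 FPKM in KO, a ratio of 1.88 (95% counting interval 1.84 to 1.92). Crp, the gene of the related C-reactive protein, had 238 FPKM in WT and 387 FPKM in KO. The KO/WT ratio of Crp was 1.63. The other pentraxin genes Ptx3, Nptx1, Nptx2 and Nptxr had a mean FPKM below 1.

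Loci around the 10 genes had ratios nearer to those of all expressed genes. Within 100 kb, 31 other loci were expressed, and 19 of them were lower and 12 higher in KO, and their median log2 KO/WT was -0.14. Past 2-fold were 3 of the 31, namely Col27a1 beside Orm1, with 0.865 FPKM in WT and 2.55 FPKM in KO, Slc25a25 near Lcn2, with 31.5 and 65.9 FPKM, and Orm3 in the other direction. Plrg1, whose locus lies 5.72 kb from Fgb, had 16.4 FPKM in WT and 15.4 FPKM in KO. The nearest loci to Hp, 1.08 kb away, are those of Dhx38, with 6.38 and 5.96 FPKM, and Txnl4b, with 4.33 and 2.79 FPKM. Trim3, 4.35 kb from Hpx, had 3.33 and 3.61 FPKM.

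**Figure D3:**
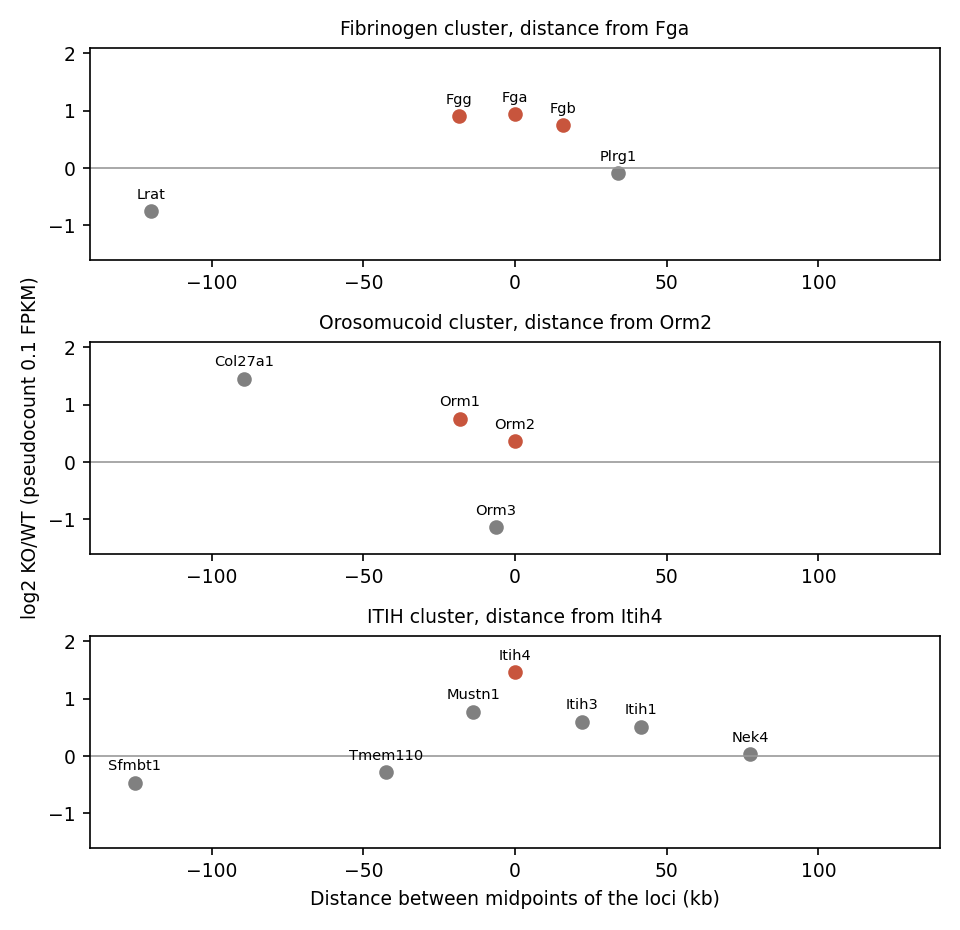
log2 KO/WT (y axis) of loci near Fga, Orm2 and Itih4 against the distance between locus midpoints in kb (x axis), for expressed loci, with acute phase genes of this set in red and other loci in grey. The fibrinogen genes lie between 0.75 and 0.94 with Plrg1 at -0.09, Orm3 lies at -1.13 beside Orm1 and Orm2, and Itih3 and Itih1 lie at 0.60 and 0.51 beside Itih4 at 1.46.

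Since the 10 genes were higher together, the bases before their starts were searched for motifs of factors known from the acute phase response. RefSeq promoter sequences on GRCm38.p6 were matched for 8 of the 10, and Hp and Orm1 were not matched. A STAT3 motif (TTCNNNGAA) was found in the window of 250 bases before and 50 after the start in 4 of the 8, Fga, Fgb, Itih4 and Apcs, and in 8.3% of all 32851 promoters. The acute phase type 2 element (CTGGGAA, which can overlap a STAT3 motif) was found in Fgb, Fgg and Apcs and in 11.1% of all promoters. A C/EBP motif (TTGCNNAA) was found in Lcn2, Fga, Fgb, Orm2 and Hpx and in 10.8% of all promoters. An NF-κB motif (GGANTTTCC) was in none of the 8 and in 1.25% of all promoters, an HNF1 motif (GTTAATNAT) was in Fga and in 0.801%, and the letters of a TATA box (TATAAA) were in Orm2 and Itih4 and in 13.6%. The match in Itih4 was on the opposite strand and lay across the start, from -3 to 2. Both strands were searched, and a match of letters is a description of the window, not a binding site.

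The 250 bases before the start are printed for Lcn2 and Itih4, which had the highest ratios, for Fgb, in which STAT3, type 2 and C/EBP motifs all matched, and for Orm2, which had the lowest ratio. They read 5′ to 3′ along the gene's strand, in lower case, with the matched motifs in capitals. The 3 capitals that end the Itih4 sequence are the part of its TATAAA match before the start. The positions of the printed bases on GRCm38.p6 are chr2:32387740-32387989 (minus strand) for Lcn2, chr14:30886226-30886475 (plus strand) for Itih4, chr3:83049864-83050113 (minus strand) for Fgb and chr4:63362199-63362448 (plus strand) for Orm2.
Lcn2: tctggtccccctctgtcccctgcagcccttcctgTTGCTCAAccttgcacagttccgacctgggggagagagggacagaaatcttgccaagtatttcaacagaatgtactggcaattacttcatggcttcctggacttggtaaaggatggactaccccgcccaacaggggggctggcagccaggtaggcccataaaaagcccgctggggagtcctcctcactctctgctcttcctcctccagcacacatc
Itih4: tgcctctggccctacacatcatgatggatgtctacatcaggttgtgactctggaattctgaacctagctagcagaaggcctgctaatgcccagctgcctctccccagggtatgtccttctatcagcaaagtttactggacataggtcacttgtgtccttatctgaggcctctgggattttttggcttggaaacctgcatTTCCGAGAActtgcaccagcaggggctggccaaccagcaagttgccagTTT
Fgb: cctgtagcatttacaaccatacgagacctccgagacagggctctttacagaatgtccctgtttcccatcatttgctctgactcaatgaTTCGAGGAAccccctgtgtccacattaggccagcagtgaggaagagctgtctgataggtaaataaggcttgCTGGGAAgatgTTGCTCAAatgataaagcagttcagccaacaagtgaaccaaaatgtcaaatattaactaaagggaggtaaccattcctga
Orm2: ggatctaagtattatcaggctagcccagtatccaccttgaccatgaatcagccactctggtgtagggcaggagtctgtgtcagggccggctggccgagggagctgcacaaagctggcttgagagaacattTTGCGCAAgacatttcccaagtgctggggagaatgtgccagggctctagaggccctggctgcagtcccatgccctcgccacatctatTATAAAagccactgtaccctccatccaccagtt
The starts are those of the RefSeq promoters and were not compared with the gene bounds on NCBI37 given above, so positions can shift where these starts differ. With the RefSeq start base counted as 0, the STAT3 motif of Itih4 lies from -51 to -43. In Fgb the STAT3 motif lies from -162 to -154, the type 2 element from -91 to -85 and the C/EBP motif from -80 to -73. The C/EBP motif of Orm2 lies from -120 to -113, ahead of its TATA box from -33 to -28, and that of Lcn2 lies from -216 to -209. KO/WT ratios ran from 1.68 to 2.76 in the genes with a match to the STAT3 motif and from 1.29 to 3.59 in the other genes searched. Fgg, among the latter, had a type 2 element, and Hp and Orm1 could not be searched. A link between motifs and ratios was not tested.

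Other positive acute phase genes were mostly higher in KO as well. Of 21 expressed genes, 18 were higher and 3 lower, 7 were more than 2-fold higher, and the median log2 KO/WT was 0.76. The most abundant were Saa2, with 2592 FPKM in WT and 14274 FPKM in KO, Saa1, with 2839 and 13137 FPKM, and Serpina3m, with 5005 and 7970 FPKM on a row shared with another gene. The 3 lower ones were each past 2-fold, namely Hamp, which encodes the iron hormone hepcidin, with 634 and 143 FPKM, Cd14, a receptor for bacterial lipopolysaccharide, with 1.62 and 0.445 FPKM, and Orm3. The row of C3, a complement gene of this list, was marked as having too many fragments and listed at 0 in KO against 1593 FPKM in WT, which is a failed estimate, and it was left out.

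Negative acute phase genes, whose plasma proteins decline during the response, had no common direction as deposited. Of 12 expressed genes, 6 were higher and 6 lower in KO, and their median log2 KO/WT was 0.08. Higher in KO were 24.4% of all expressed genes and 46.8% of the 188 genes at or above the mean FPKM of Apcs. The even split depends on the scaling. Igf1 (log2 KO/WT -0.17), Ttr (-0.06), Gc (-0.03) and F12 (-0.02) turn above 0 with equal upper quartiles. The 3 most abundant were Ahsg, with 5309 FPKM in WT and 5991 FPKM in KO, Apoa2, with 5080 and 5916 FPKM, and Apoa1, with 3061 and 3503 FPKM. Serpina6, which encodes the corticosteroid-binding globulin, was the single gene past 2-fold, with 40.5 FPKM in WT and 19.0 FPKM in KO. Alb and Trf, the genes of albumin and transferrin, had failed estimates at 0 in both libraries and gave no value.

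The cytokines that induce the response were at low levels in both libraries. Of 12 cytokine genes, 10 had a mean FPKM below 1, and their summed level was 7.19 FPKM in WT and 3.3 FPKM in KO. Il6 had 0.0371 FPKM in WT and was listed at 0 in KO, and Il1b had 0.474 and 0.149 FPKM. The most abundant were Ctf1, cardiotrophin 1, with 2.72 and 1.93 FPKM, and Il1a, with 2.30 and 0.749 FPKM. Receptors and signalling genes had values near each other, with 7 of 15 higher in KO and a median log2 ratio of -0.10, which turns above 0 with equal upper quartiles. The receptor subunits Il6ra and Il6st had 17.7 and 15.8 FPKM and 23.2 and 24.1 FPKM, and Stat3 had 55.3 and 50.9 FPKM, next to Tnfrsf1a, a receptor of tumour necrosis factor and the most abundant of the list, with 64.5 and 59.6 FPKM. Past 2-fold was 1 of the 15, Il1r1, the receptor of interleukin-1, with 28.2 FPKM in WT and 56.5 FPKM in KO. Socs3, the feedback inhibitor that STAT3 induces, had 9.62 FPKM in WT and 18.6 FPKM in KO.

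Transcription factors of the response also had a median near 0, at -0.05 over 15 genes (above 0 with equal upper quartiles), of which 6 were higher and 9 lower in KO. The C/EBP genes Cebpb and Cebpd had 75.8 and 59.8 FPKM and 8.67 and 6.95 FPKM. The most abundant were Hnf4a, a hepatocyte factor, with 172 and 193 FPKM, Creb3l3, a membrane-bound factor released by cleavage, with 75 and 147 FPKM, and Cebpb. More than 2-fold higher in KO were Fos, with 1.37 FPKM in WT and 8.10 FPKM in KO, and Nfkbiz, which encodes an NF-κB cofactor, with 4.22 and 10.2 FPKM. The lists share genes, among them Stat3, Il1rap, Crp, Itih3 and Orm3, and so are not independent of each other. Ttr, Apoa1, Hnf4a and Asgr1 are hepatocyte markers that also stand in another list.

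**Figure D4:**
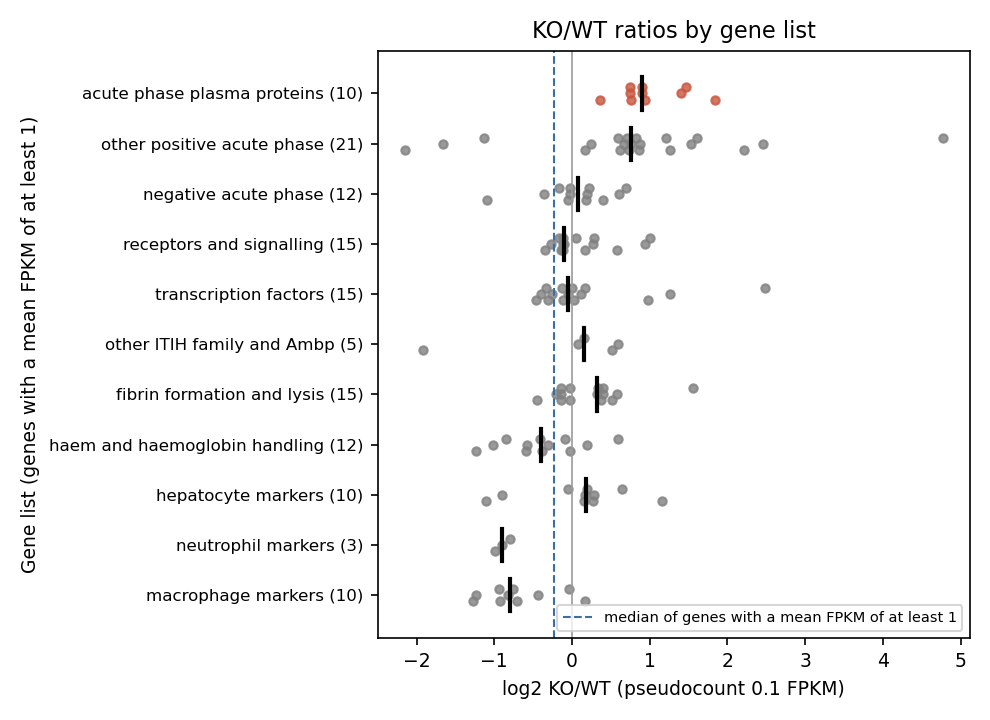
log2 KO/WT (x axis) of each expressed gene in 11 gene lists (y axis, number of genes in brackets), with the list median as a black bar and the median of all such genes as a dashed line at -0.24. The acute phase plasma proteins (red) lie between 0.36 and 1.85, whereas the medians of receptors (-0.10) and transcription factors (-0.05) lie near 0.

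Markers of hepatocytes, the cells that make these plasma proteins, were at high levels in both libraries. Over 10 such genes with a value, the summed level was 14449 FPKM in WT and 16024 FPKM in KO, with 7 of the 10 higher in KO and a median log2 ratio of 0.18. Single markers differed in direction. Cps1 was 2.15-fold lower in KO, with 1597 FPKM in WT and 743 FPKM in KO, and Tat was lower too, with 1115 and 595 FPKM. Cyp2e1 was 2.23-fold higher in KO, with 1039 and 2319 FPKM. Markers of other liver cells were mostly lower in KO, as were 75.6% of all expressed genes, so the counts by direction alone set them little apart. Of 10 expressed markers of macrophages and Kupffer cells, 9 were lower, and their summed level over 11 genes was 92.0 FPKM in WT and 55.7 FPKM in KO. All 9 stellate cell and fibroblast markers and 7 of 8 endothelial markers were lower, with summed levels of 116 and 65.9 FPKM and of 65.9 and 50.9 FPKM. By size, 4 of the 9 stellate cell and fibroblast, 2 of the 10 macrophage and 1 of the 8 endothelial markers were more than 2-fold lower. Among all expressed genes this share was 8.69%. The median log2 KO/WT of these lists was -0.75, -0.79 and -0.61, against -0.24 for all expressed genes. The part of these differences in the values of the acute phase genes was not tested.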

How the data were processed

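Liver RNA of 1 WT and 1 KO mouse library was sequenced on an Illumina HiSeq instrument. Per the labels and the paper's methods, the authors aligned the reads with TopHat 2.0.0 to NCBI37 (mm9), assembled transcripts with Cufflinks 1.3.0 and used Cuffdiff to estimate the deposited FPKM of each locus and library. The methods give 100 bp single end reads, whereas the labels give paired end reads. Whether quartile normalization was used is not given in the sources used here. The table's columns of fold changes, test statistics, p-values and q-values hold the authors' own comparison and were not used.

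Rows marked HIDATA (21 of 38016, too many fragments for an estimate) were left out, none of them of the 10 genes, as were 2302 rows with no symbol. Each of 850 joint rows gave its value to every symbol it names, and rows of a symbol were summed. A pseudocount of 0.1 FPKM was added for log2 ratios, so that those of low genes are understated, and fold ratios used none. Fragments were estimated from the FPKM, the longest coding transcript in GENCODE vM1 and the lowest values of 1245 single-exon genes. The members, gene lists, fold lines and motifs were chosen with earlier results of these data known. Named genes were the 10 members, the 3 most abundant of each list described in detail, genes past 2-fold against a list's direction, near loci past 2-fold and genes nearest in level. Other named genes were chosen after their values were seen. The software was Biopython 1.88, matplotlib 3.10.9, pandas 2.3.3, numpy 2.4.6 and Python 3.11.15. On simulated data, only the median log2 ratio and the calls past the 2-fold line were tested. With 1 library per genotype there was no test between genotypes.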

Additional observations from a re-analysis of the deposited data

How the results depend on the processing

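All 10 genes remained higher in KO under each of 9 alternatives of scaling, pseudocount and row handling. The log2 KO/WT of single genes ranged from 0.35 for Orm2 to 2.08 for Lcn2. These alternatives could not turn a direction, so the unchanged direction is no test of it. The scalings multiplied KO values by 0.987 to 1.18, and the lowest ratio was 1.29. Each gene had a single row of its own, and the pseudocounts were small beside the levels. The count of genes more than 2-fold higher in KO, 3 as deposited, was 6 after scaling to equal upper quartiles, after setting the median ratio of expressed genes to 1 and after scaling to equal sums without the 10 genes and the Saa genes, and it was 1 with a 3-fold line. The same 3 scalings moved their median log2 ratio from 0.91 to 1.11, 1.14 and 1.01, and equal sums without the 50 most abundant genes moved it to 0.998. These scalings raise every KO value by 1 factor. With equal sums of FPKM, with no pseudocount or one of 1 FPKM, with other filters and row handling, without Orm1 and Orm2 and with the fibrinogen chains counted once, the median lay between 0.89 and 0.92. With a lone library in each group, neither could be left out. No paired analysis was possible because each genotype had a single library with no replicate number. Depth did not limit the ratios of the 10 genes, while the difference between mice was not measured.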

Other observations

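The genes nearest to the 10 in both libraries, by the distance of log2 FPKM in WT and KO, were members of the same set for 5 of the 10. Fga and Fgb were nearest to each other at a distance of 0.13, Orm1 and Fgg were nearest to each other at 0.11, and Hpx was the gene nearest to Hp, at 0.47. Fgl1, a fibrinogen-like protein made by hepatocytes, was the gene nearest to both Itih4 and Lcn2, with 754 FPKM in WT and 1741 FPKM in KO. Apcs was nearest to Cml2, with 252 and 446 FPKM, Orm2 to the retinol dehydrogenase Rdh7, with 367 and 442 FPKM, and Hpx to Serpina3k, whose row also names Serpina3m. With only 2 libraries, such nearness is a likeness of level and ratio and nothing more.

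Lipocalins other than Lcn2, Orm1 and Orm2 had no common direction, with 3 of 5 genes higher and 2 lower in KO and a median log2 KO/WT of 0.16. The most abundant were Rbp4, the carrier of retinol, with 1558 FPKM in WT and 2047 FPKM in KO, Ambp and Apom, which had 217 and 169 FPKM. Of the receptors and partners of the 10 proteins, the asialoglycoprotein receptor genes Asgr1 and Asgr2 had 304 and 337 FPKM and 81.6 and 72.0 FPKM, and Slc22a17, which takes up lipocalin 2, had 0.216 and 0.25 FPKM. Among cells outside the liver proper, platelet markers summed to 3.59 FPKM in WT and 1.82 FPKM in KO, lymphocyte markers to 0.947 and 0.503 FPKM and adipocyte markers to 3.21 and 7.84 FPKM, the last almost all from Cidec, a lipid droplet gene that fatty hepatocytes express too. Cholangiocyte markers summed to 33.7 FPKM in WT and 29.4 FPKM in KO.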
